A study of Rattus norvegicus with 16 samples.

Results

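Cytosolic ribosomal protein genes encode the proteins of the large and small ribosomal subunits outside the mitochondrion. They were taken by symbol from the deposited table, as the symbols that begin Rpl or Rps followed by a digit, together with Rplp0 and Rpsa. Symbols of the Rps6k kinases and of pseudogenes were dropped. This gave 74 of 15580 gene entries, of which 42 belong to the large subunit and 31 to the small subunit. The remaining 1, Rps19bp1, matches the pattern but encodes a binding partner of a ribosomal protein and was kept apart. Of the 73 others, 62 carry the symbol of a canonical ribosomal protein and 11 that of a paralog. Rpl32, Rps27a and Rps4x each have a second entry under the same symbol, called the second row here.

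The series profiled RNA from brain tissue of male Wistar rats, which the design text calls amygdala and the labels call a whole tissue lysate. Rearing and diet gave 4 groups of 4 libraries. Control rats stayed with the dam and later ate standard chow, and HFD rats stayed with the dam and later ate a high fat diet. ELS rats, for early-life stress, were separated from the dam for 3 h a day over 16 days starting on postnatal day 1 and later ate chow, and ELS-HFD rats had the same separation followed by the high fat diet. All animals were tested on an elevated plus maze at postnatal day 57 ± 1 and assigned to a diet on day 60. The age at tissue collection, the dam and the litter are not given in the sources used here. Nothing in the labels states that the replicates of a group came from separate animals, so the p-values reflect the scatter among these libraries, part of which may be technical.

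A ribosome joins a small subunit, which reads the messenger RNA, to a large subunit, which forms the peptide bonds. Mammalian cells make the subunit proteins in nearly equal numbers, and most of their mRNAs begin with a run of pyrimidines, the 5′ terminal oligopyrimidine tract, through which the growth-regulating kinase mTOR controls their translation. In neurons these mRNAs are also carried into dendrites and axons. Several ribosomal proteins have paralogs that replace them in certain tissues.

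The tract can be read in the promoter sequences that RefSeq gives for the rat build GRCr8. A promoter entry was found for 53 of the 70 symbols, and they cover 54 start sites. The 6 windows that follow run from 60 bases before the annotated start to 30 bases from it onward, 5′ to 3′ on the gene's strand, with capitals for the run of C and T that was counted as the tract, from the first C that lay within 5 bases of the annotated start. Pyrimidines just before that C are in lower case, as in Rpl22, where the run began further upstream, and in Rpl28. Rps28, Rplp0, Rps27, Rpl22 and Rpl22l1 are shown because the results turn on them or on their paralog, and Rpl28 because it varied least between libraries. Rpl22l1 is the one of these 6 without a tract.
Rps28: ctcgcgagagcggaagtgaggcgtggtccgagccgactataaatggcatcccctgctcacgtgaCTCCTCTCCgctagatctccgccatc
Rplp0: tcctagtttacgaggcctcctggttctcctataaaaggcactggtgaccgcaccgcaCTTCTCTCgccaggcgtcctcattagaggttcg
Rps27: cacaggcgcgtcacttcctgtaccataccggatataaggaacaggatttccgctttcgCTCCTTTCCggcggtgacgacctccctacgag
Rpl28: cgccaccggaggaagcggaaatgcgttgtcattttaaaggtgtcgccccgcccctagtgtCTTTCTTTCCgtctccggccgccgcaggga
Rpl22: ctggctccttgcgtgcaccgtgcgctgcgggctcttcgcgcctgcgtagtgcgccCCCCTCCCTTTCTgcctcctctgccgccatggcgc
Rpl22l1: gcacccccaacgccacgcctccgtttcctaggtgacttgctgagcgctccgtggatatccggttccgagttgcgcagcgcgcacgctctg
The windows lie at chr7:15311304-15311393 on the minus strand for Rps28, chr12:46718361-46718450 on the minus strand for Rplp0, chr2:177964577-177964666 on the minus strand for Rps27, chr1:78083503-78083592 on the minus strand for Rpl28, chr5:168117901-168117990 on the plus strand for Rpl22 and chr2:113683136-113683225 on the plus strand for Rpl22l1.

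A tract was counted where a C within 5 bases of the annotated start was followed by at least 4 further C or T, also inside a longer run, and the same rule was used for all promoters. By that count 30 of the 48 canonical start sites carried a tract, or 62.5%, against 15.2% of the 21851 protein-coding promoters in the table. Among the 6 start sites of paralogs, 2 carried one. In the whole window from 250 bases before to 50 after the start, on either strand, CCGGAAG, a core bound by ETS factors, was present in 31.2% of canonical promoters and 10.7% of all. AAGATGG, part of the YY1 motif, was present in 16.7% against 7.29%, and TATAAA in 8.33% against 13.0%. These are matches of letters and were not tested.

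Total counts per library ranged from 11438086 to 23629824. The ribosomal protein entries taken by symbol took between 0.850% of the counts, in ELS 2 (95% Wilson interval 0.845 to 0.855), and 0.994%, in ELS 3 (0.989 to 0.999). Intervals of this kind cover counting error only. Large-subunit entries took 0.530% to 0.618% and small-subunit entries 0.317% to 0.376%, so their ratio stayed between 1.60 and 1.69 in the 16 libraries. The defining markers of brain were present, with Snap25, a synaptic protein of neurons, at 1470 to 1941 CPM (counts after bringing every library to the same total), and Prkcd, which marks neurons of the central amygdala, at 10.3 to 28.3 CPM. Alb, the plasma protein made by liver, stayed at or below 7.35 CPM. The 11 measured markers of the choroid plexus, which lies within the ventricles, summed to between 47.7 and 15450 CPM and were lowest in ELS 1, ELS 2 and ELS-HFD 1. The 15 myelin markers summed to 3724 to 15940 CPM. In bulk tissue, fewer cells of a type and less RNA per cell cannot be told apart.

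After a filter on low counts, 70 of the 73 ribosomal protein entries were tested, 40 of the large and 30 of the small subunit. Rpl37, Rpl3l and Rps18 did not reach the filter. Rpl3l, a muscle paralog of Rpl3 in mice, held 2 to 11 counts per library. Rpl37 held 3 to 8 counts and Rps18 held 1 to 15, and another entry, which RefSeq now names a copy of Rpl37, held 301 to 679. Rps18l1, the paralog entry of Rps18, held 936 to 1938. Whether reads of Rpl37 or Rps18 were counted in these other entries was not tested. Of the 77 canonical symbols listed for the ribosome, 11 of the large and 7 of the small subunit have no entry under their own symbol and were not analysed here, among them Rplp1, Rplp2 and Rps6. Rps7, Rpl9 and Rps29 are also among them. Entries that RefSeq now names copies of these genes had median counts of 4004, 2908 and 1515 and are not in the shares of counts above. Symbols and copies matter for these genes, since each of the 59 canonical symbols with an entry has between 1 and 36 named copies in RefSeq, with a median of 14. Where a copy is nearly identical, the authors' counting could split or lose reads, so each level is uncertain to that extent.

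The level of a subunit in a library was taken as the mean, over its tested genes, of log2 CPM minus the gene's own mean over the 16 libraries. The Rpl30 entry was left out of the large subunit here because its libraries fell at 3 separate levels. The large-subunit level was highest in ELS-HFD 1, at 0.17, followed by ELS 3 at 0.11, and lowest in ELS 2, at -0.14. The small-subunit level was 0.11 in ELS-HFD 1, 0.10 in ELS 3 and -0.13 in ELS 2. The lowest small-subunit level, -0.13, was that of ELS-HFD 2. High and low libraries thus lay within the same groups, and both subunits had the same sign in 14 of the 16 libraries, or in 12 with the Rpl30 entry kept.

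**Figure D1:**
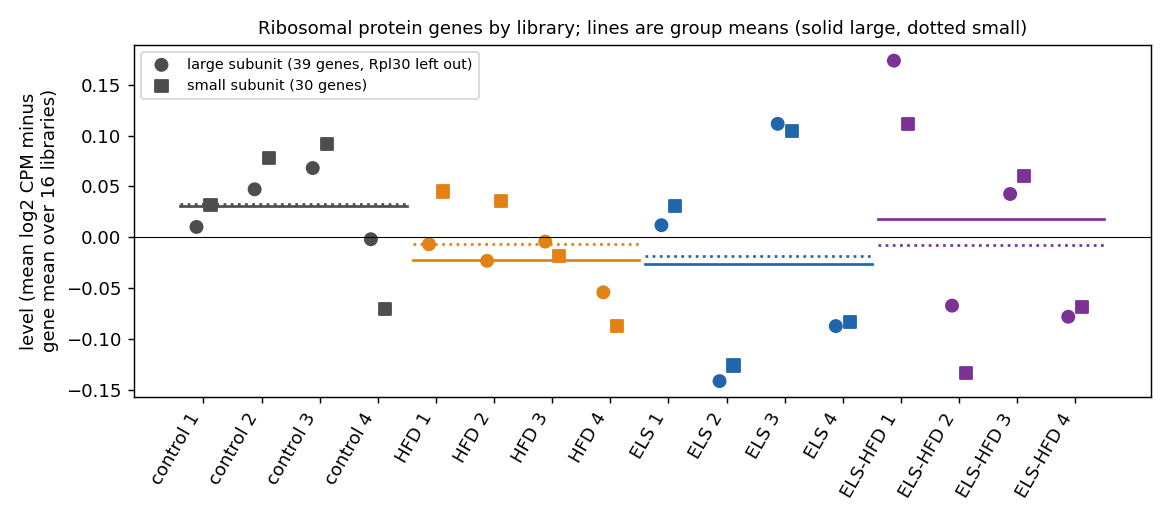
Level of large-subunit genes (circles, Rpl30 left out) and small-subunit genes (squares) in each of the 16 libraries, as mean log2 CPM minus the gene mean; lines are group means. ELS-HFD 1 and ELS 3 are the highest libraries at 0.17 and 0.11 for the large subunit, and both are in groups that also hold low libraries.

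By group, the large-subunit level was 0.03 ± 0.03 (SD, n = 4) in control, -0.02 ± 0.02 in HFD, -0.03 ± 0.11 in ELS and 0.02 ± 0.12 in ELS-HFD. The small-subunit level was 0.03 ± 0.07 in control, -0.01 ± 0.06 in HFD, -0.02 ± 0.11 in ELS and -0.01 ± 0.11 in ELS-HFD. The group means of the large subunit spanned 0.06, less than the SD in ELS and ELS-HFD but more than that in control and HFD. Every control library was above every HFD library for the large subunit, by a narrow gap between the lowest control level, -0.0020, and the highest HFD level, -0.0043, and with the Rpl30 entry kept these groups overlapped. The other pairs of groups overlapped for the large subunit, and all 4 groups overlapped for the small subunit, whose group means spanned 0.05. No test was made of the level or of the difference in spread.

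The libraries with the highest and the lowest large-subunit level were both poor in choroid plexus transcripts, while others near the ends were not. On the same scale, the choroid plexus list stood at -5.67 in ELS-HFD 1, which had the highest large-subunit level, and at -5.04 in ELS 2, which had the lowest. ELS 1, with the list at -2.29, had a large-subunit level of 0.01. The list was at its highest, 2.31, in ELS 3, which had the second highest large-subunit level, and at 1.19 in ELS-HFD 2, which had the lowest small-subunit level. ELS 3 and ELS 4 had the highest levels of the myelin list, 1.02 and 0.85, and their large-subunit levels were 0.11 and -0.09. The share of counts from mitochondrially encoded genes ran from 10.5% to 14.9%, highest in control 4. Of 5 red cell markers, 4 had an entry, none at 0, and 3 were tested. They summed to 142 to 238 CPM in control, 103 to 250 CPM in HFD, 106 to 161 CPM in ELS and 119 to 234 CPM in ELS-HFD. The red cell level was 0.45 in ELS-HFD 1 and -0.06 in ELS 3, and it was -0.60 in ELS 2, -0.57 in ELS 4, -0.37 in HFD 4, -0.34 in ELS-HFD 4 and -0.24 in ELS-HFD 2, the 5 libraries with the lowest large-subunit levels. It was also low in HFD 2, at -0.56, and in HFD 3, at -0.47, whose large-subunit levels were -0.02 and -0.0043, and it was highest in HFD 1, at 0.64, with a large-subunit level of -0.0069. The 12 markers of striatal medium spiny neurons, none at 0, summed to 659 to 1988 CPM in control, 1125 to 1490 CPM in HFD, 1484 to 2898 CPM in ELS and 788 to 2157 CPM in ELS-HFD. Their level ran from -1.18 in control 4 to 1.302 in ELS 3, and was -0.99 in ELS-HFD 1 and 0.10 in ELS 2. The part of tissue composition or RNA quality in the ribosomal protein level was not tested.

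Most ribosomal protein genes followed the library. In ELS-HFD 1, 68 of the 70 tested genes were above their own mean, and in ELS-HFD 2 only 5 were. A gene lay on the same side of its mean as the average of the other members in a median of 13 of 16 libraries, against 8 for the 14137 other genes tested. Of the members, 51 of 70 (72.9%) did so in 12 or more libraries, against 7.48% of other genes. Among genes with a median count of 1000 or more the shares were 83.0% and 8.23%. All libraries of the members share depth and scaling, and these shares are descriptions.

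The genes also varied little within a group. The median within-group SD of log2 CPM was 0.10 over the 70 members and 0.18 over other genes, and among genes with a median count of 1000 or more it was 0.10 and 0.12. Rpl28, a large-subunit protein, varied least, with an SD of 0.06 and a highest library 1.14 times the lowest. Rpl15 had an SD of 0.07. The widest canonical entries after Rpl30 were the second rows of Rpl32, at 0.51 to 1.58 CPM, and of Rps4x, at 1.81 to 3.41 CPM, both at low counts.

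The first comparison asked what the high fat diet changed in rats left with the dam. No ribosomal protein gene passed the threshold of an adjusted p of 0.05 in HFD against control (edgeR quasi-likelihood test, Benjamini-Hochberg over 14208 genes), where 0.0% of all genes passed, and DESeq2 called none of them, against 0.00704% of all genes. No member had an unadjusted p under 0.05, against 1.84% of all genes. The log2 fold was below 0 for 55 of 70 members and for 54.3% of all genes. The median log2 fold was -0.04 for the large and -0.04 for the small subunit, beside -0.01 over all genes. The genes share libraries and follow them together, so the 55 are not independent observations.

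Rps15, at the decoding side of the small subunit, and Rps10l1, a paralog of Rps10, were the 2 members lower in every HFD library than in every control library, against 1.15% of all genes. No member was higher in every HFD library, against 0.648% of all genes. Rps15 averaged 217 ± 3.36 CPM (SD, n = 4) in control and 206 ± 5.27 CPM in HFD, a log2 fold of -0.08 ± 0.07 (SE). Rps10l1 stood at 14.1, 15.0, 15.6 and 14.8 CPM in the control libraries and at 11.4, 13.8, 11.2 and 13.0 CPM in HFD. Its log2 fold was -0.27 ± 0.13, with an unadjusted p of 0.0608 and an adjusted p of 1.0 by edgeR. Its canonical partner Rps10, a small-subunit protein, averaged 31.4 CPM in both groups.

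The second comparison concerned maternal separation on chow. No member passed in ELS against control in edgeR or DESeq2, where 0.0% of all genes passed in each. The fold was below 0 for 57 of 70 members and for 50.9% of all genes, with medians of -0.03 for the large and -0.05 for the small subunit and -0.00 over all genes. Only Rps28 had an unadjusted p under 0.05, against 3.32% of all genes, and it was the only member whose groups did not overlap, against 0.753% of all genes that were lower in this way and 0.859% that were higher.

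Rps28 encodes a small-subunit protein near the exit of the mRNA channel, and variants of it are known in the human anaemia of the Diamond-Blackfan type. Its levels were 28.5, 30.4, 29.6 and 30.2 CPM in the control libraries, and 30.5, 28.3, 34.3 and 28.4 CPM in HFD. In ELS they were 25.8, 23.6, 26.6 and 27.8 CPM, and in ELS-HFD 34.6, 28.5, 30.6 and 30.04 CPM. Every ELS library was below every library of the other 3 groups. How many of all genes had this joint pattern was not counted, and ELS against HFD was not among the comparisons. The log2 fold of ELS against control was -0.19 ± 0.08 (SE), with an adjusted p of 0.999 by edgeR. Without ELS 1, ELS 2 and ELS-HFD 1, the libraries poor in choroid plexus transcripts, it was -0.13.

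**Figure D2:**
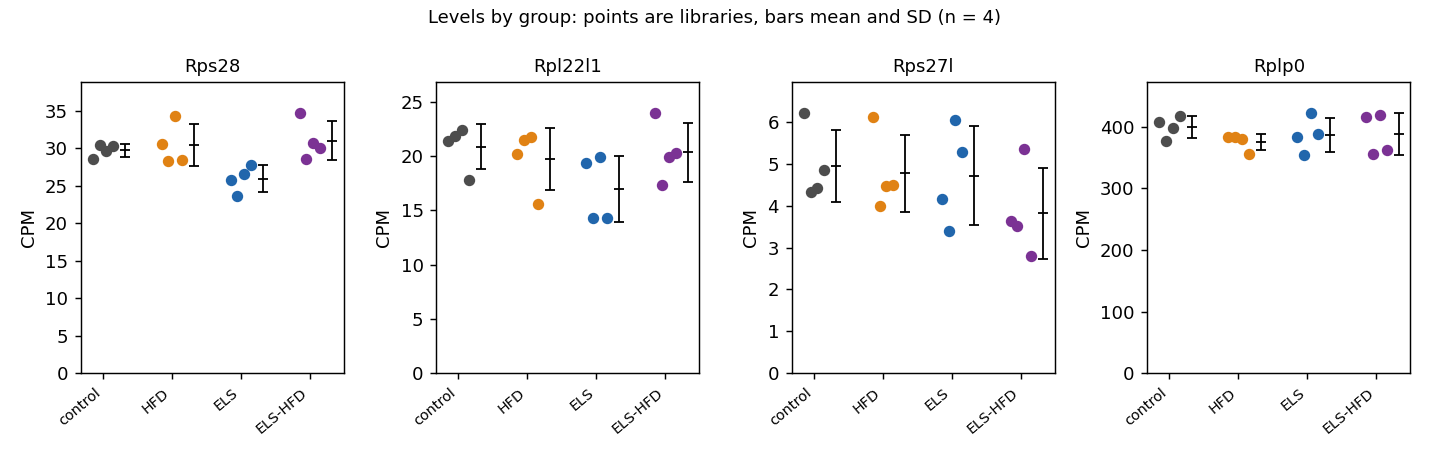
CPM of Rps28, Rpl22l1, Rps27l and Rplp0 in each library by group, with mean and SD (n = 4). The 4 ELS points of Rps28, at 23.6 to 27.8 CPM, lie below all points of the other groups, while the groups of the other 3 genes overlap. The share of all genes with the Rps28 pattern was not counted.

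The second smallest p towards lower levels in ELS was that of Rpl22l1, the paralog of the large-subunit protein Rpl22. It stood at 21.4, 21.8, 22.4 and 17.8 CPM in control and at 19.4, 14.3, 19.9 and 14.3 CPM in ELS. The groups overlapped, and the log2 fold was -0.30 ± 0.14 with an adjusted p of 0.999 by edgeR. Rpl22 itself averaged 15.9 ± 1.73 CPM in control and 16.0 ± 2.68 CPM in ELS.

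The double exposure was compared with control, with ELS and with HFD. These comparisons and the 2 above share libraries, so their values are given side by side and their likeness is no separate result. In ELS-HFD against control no member passed in edgeR or DESeq2, where 0.0% of all genes passed in edgeR and 0.0141% in DESeq2, and none had an unadjusted p under 0.05, against 4.43% of all genes. The groups overlapped for every member, while 1.06% of all genes were higher and 0.929% lower without overlap. The fold was below 0 for 44 of 70 members and for 53.1% of all genes, and the medians were -0.02 for the large and -0.03 for the small subunit, beside -0.01 over all genes.

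The smallest p towards lower levels belonged to Rps27l, a paralog of Rps27 known in human cells as a target of p53. It stood at 6.20, 4.32, 4.43 and 4.85 CPM in control and at 3.64, 3.51, 5.35 and 2.79 CPM in ELS-HFD. The groups overlapped, with a log2 fold of -0.38 ± 0.22. The canonical Rps27 averaged 97.6 ± 7.14 CPM in control, against 92.3 ± 11.2 CPM in ELS-HFD.

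Against ELS, the high fat diet after separation again left every member short of the threshold in edgeR and in DESeq2, where 0.00704% of all genes passed in edgeR and 0.0352% in DESeq2. Here the fold was above 0 for 48 of 70 members and for 49.4% of all genes, with medians of 0.04 and 0.02 for the large and small subunits and -0.00 over all genes. Rps28 was the only member with an unadjusted p under 0.05, against 6.21% of all genes. It was also the only one higher in every ELS-HFD library, against 1.21% of all genes, and none was lower in this way, against 1.32%. Its log2 fold was 0.25 ± 0.08, with an unadjusted p of 0.00506 and an adjusted p of 0.661 by edgeR. The smallest adjusted p of any member in the authors' deposited table, after their correction, was 0.124, also for Rps28 in this comparison. Leaving out 1 library at a time gave folds from 0.20 to 0.30, and without the 3 libraries poor in choroid plexus transcripts the fold was 0.13.

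Against HFD, separation before the diet gave no call among the members in edgeR or DESeq2, where 0.0% of all genes passed in each. None had an unadjusted p under 0.05, against 1.77% of all genes, and the groups of all members overlapped, where 0.584% of all genes were higher and 0.943% lower without overlap. The fold was above 0 for 44 of 70 members and for 51.3% of all genes, with medians of 0.04 and 0.01 and a median of 0.00 over all genes. Rpl7, a large-subunit protein, had the smallest p towards higher levels, at 220 ± 11.0 CPM in HFD and 240 ± 12.6 CPM in ELS-HFD and a log2 fold of 0.13 ± 0.07.

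**Figure D3:**
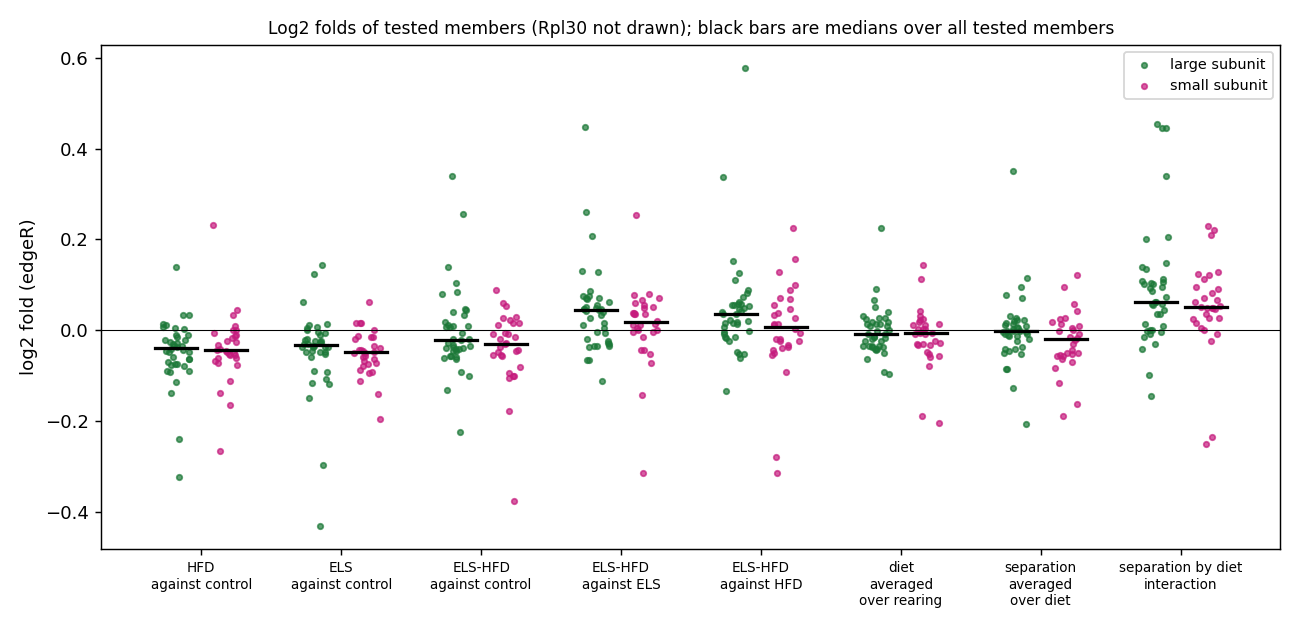
Log2 folds of the tested ribosomal protein genes in 8 comparisons, large subunit in green and small subunit in pink, with Rpl30 not drawn; black bars are medians. The medians lie between -0.05 and 0.06, and none of the points passed the adjusted threshold.

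Averaged over both rearings, the diet difference had 2 members with an unadjusted p under 0.05, Rps28 at 0.14 ± 0.05 and Rps10l1 at -0.20 ± 0.09, against 5.54% of all genes. Their adjusted p-values by edgeR were 0.824 and 0.879, and no member passed in edgeR or DESeq2, where 0.00704% of all genes passed in edgeR and 0.0141% in DESeq2. The diet difference was below 0 for 39 of 70 members and for 53.2% of all genes. Averaged over both diets, the separation difference had none with an unadjusted p under 0.05, against 2.60% of all genes, and none that passed in edgeR or DESeq2, where 0.0% of all genes passed in each. It was below 0 for 42 of 70 members and for 49.1% of all genes. The difference between the separation effects on the 2 diets was tested as an interaction. No member passed in either tool, where 0.0% of all genes passed in each, and none had an unadjusted p under 0.05, against 2.23% of all genes. The interaction was above 0 for 57 of 70 members and for 50.7% of all genes. Its median was 0.06 for the large and 0.05 for the small subunit, with a median SE of 0.11 for a single gene.

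The members with the next smallest p-values in these averages differed by little. Rpl41, which encodes a very short basic peptide of the large subunit, stood at 175, 168, 163 and 156 CPM in control and at 159, 140, 166 and 146 CPM in ELS, and its separation difference averaged over both diets was -0.08 ± 0.05 (SE). Rps21, a small-subunit protein, averaged 40.9 ± 1.20 CPM in control, 40.5 ± 4.83 CPM in HFD, 37.1 ± 3.91 CPM in ELS and 38.0 ± 1.77 CPM in ELS-HFD, with a separation difference of -0.12 ± 0.06. Rpl18, a large-subunit protein, averaged 85.9 ± 5.11 CPM in control, 80.5 ± 3.60 CPM in HFD, 84.6 ± 4.10 CPM in ELS and 82.5 ± 8.63 CPM in ELS-HFD, with a diet difference of -0.06 ± 0.05. The groups of these 3 genes overlapped in each pairwise comparison. The second row of Rps27a, whose protein is made as a fusion with ubiquitin, had an interaction of 0.23 ± 0.13. It averaged 32.9 ± 2.54 CPM in control and 29.4 ± 2.81 CPM in HFD, and 31.2 ± 3.05 CPM in ELS and 32.8 ± 3.35 CPM in ELS-HFD.

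Among the other canonical members named for their spread, their p-value or a paralog, the groups were close. Rpl3, which sits near the peptide-forming centre, averaged 379 ± 25.8 CPM in control, against 392 ± 33.0 CPM in ELS-HFD, the lowest and highest group means being 372 and 392 CPM. Rps16 averaged 419 ± 12.7 CPM in control, against 391 ± 36.6 CPM in ELS-HFD, a log2 fold of -0.10. Neither passed in any comparison.

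The precision of these comparisons can be read from the intervals. In ELS against control the median SE of a member's log2 fold was 0.08, and the 95% interval lay within 0.5 on either side of 0 for 63 of 70 members and within 0.3 for 56. In HFD against control these were 62 and 56 members. Changes smaller than such an interval were not detectable at this depth and number of libraries.

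The canonical genes were next read by their place in the ribosome. Rplp0, the base of the stalk that recruits translation factors, stood at 408, 376, 398 and 417 CPM in control and at 384, 384, 380 and 357 CPM in HFD, with a log2 fold of -0.09 ± 0.07. It averaged 387 ± 27.6 CPM in ELS and 388 ± 34.0 CPM in ELS-HFD, and all groups overlapped. Rpl5 and Rpl11, which carry the 5S RNA into the large subunit and bind the p53 regulator Mdm2, averaged 213 ± 7.93 and 133 ± 8.75 CPM in control and 208 ± 15.9 and 132 ± 7.75 CPM in ELS. Both had folds between -0.05 and 0.06 in the 5 pairwise comparisons.

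At the tunnel through which the new peptide leaves, Rpl4, Rpl17 and Rpl31 were tested, and none passed in any comparison. Rpl17 ranged from 158 to 225 CPM over the libraries, wider than Rpl31 at 92.2 to 114 CPM, and its fold in ELS-HFD against HFD was -0.13. Of the proteins along the mRNA path, Rps2, Rps3, Rps23, Rps15 and Rps14 were tested, and their folds in ELS against control ran from -0.09 to -0.02. The 8 tested genes known from Diamond-Blackfan anaemia, an inherited failure of red cell production, had folds from -0.19, for Rps28, to -0.01 in ELS against control, and none passed.

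Rpsa, a small-subunit protein also known as the laminin receptor precursor, ran from 275 CPM in HFD 4 to 354 CPM in ELS-HFD 1. Its group means were 331 ± 17.3 CPM in control, 320 ± 32.5 in HFD, 310 ± 22.8 in ELS and 310 ± 32.2 in ELS-HFD, and the groups overlapped. Rpl6, a large-subunit protein, moved apart from most members, with a level on the side of the others in 7 of 16 libraries. It stood at 136, 142, 132 and 135 CPM in control, and its means were 150 ± 13.1 CPM in HFD, 150 ± 14.7 CPM in ELS and 150 ± 14.4 CPM in ELS-HFD. Its log2 folds against control were 0.14 in all 3 cases, each with an SE of 0.08, and the groups overlapped.

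Paralog entries were at varied levels. Rpl36al, Rpl7l1 and Rps18l1, paralogs of Rpl36a, Rpl7 and Rps18, were counted in every library, at 36.6 to 49.7, 24.1 to 30.8 and 74.8 to 91.9 CPM. Rpl10l, which replaces the X-linked Rpl10 in male germ cells of mice, stayed at 0.69 to 2.75 CPM, and Rpl39l, which is enriched in mouse testis, at 0.08 to 1.24 CPM. Rps4y2, a paralog of Rps4x, ran from 4.39 to 10.4 CPM and Rps9l1 from 9.67 to 19.4 CPM. The groups of all of these overlapped in each pairwise comparison. Rps19bp1, which is no ribosomal protein, averaged 22.6 ± 2.13 CPM in control and 23.8 to 24.4 CPM in the other groups.

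Rpl30, a large-subunit protein, had the widest within-group SD of the canonical members, 1.25, and its pattern over libraries was noticed after its values were seen. Its entry stood at 3.21, 4.27, 4.84 and 20.6 CPM in control and at 39.4, 4.33, 19.99 and 3.401 CPM in HFD. In ELS it stood at 21.8, 2.97, 24.2 and 19.96 CPM, and in ELS-HFD at 23.1, 18.8, 20.9 and 21.9 CPM. The libraries fell at 3 separate levels, 6 of them at 2.97 to 4.84 CPM, 9 at 18.8 to 24.2 CPM and 1, HFD 1, at 39.4 CPM. The levels cut across the groups, apart from ELS-HFD, whose 4 libraries were all at the middle one.

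The entry that RefSeq now names Rpl30l2, an Rpl30-like gene, ran the other way. It stood at 21.6 to 27.5 CPM in the 6 libraries with a low Rpl30 level, at 12.8 to 18.2 CPM in the 9 and at 9.57 CPM in HFD 1. Rpl30 took 10.9% to 15.0% of the summed counts of both entries in the 6 libraries and 52.6% to 60.9% in the 9. In HFD 1 it took 80.5% (95% Wilson interval 77.0 to 83.5, of 568 counts). The sum of both entries was 24.6 to 32.3 CPM, 32.8 to 42.4 CPM and 49.0 CPM at the 3 levels. RefSeq lists 15 named copies of Rpl30.

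**Figure D4:**
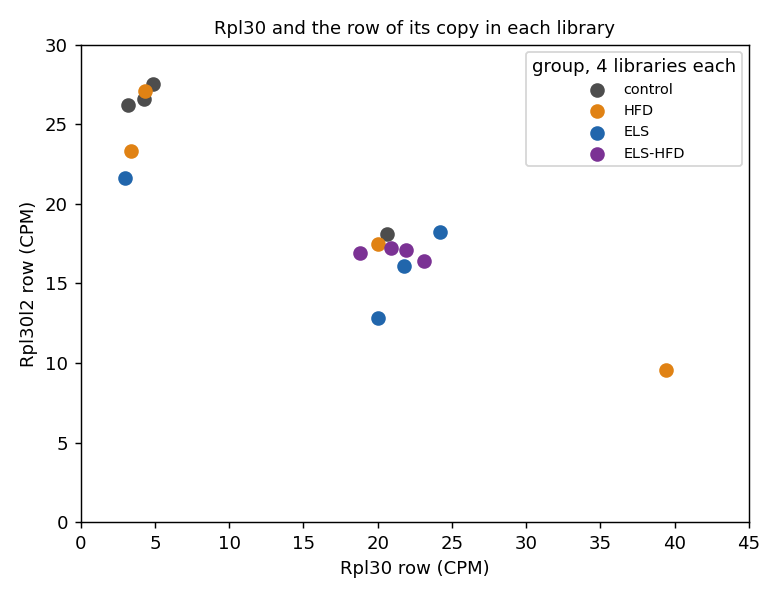
CPM of the Rpl30 entry against CPM of the Rpl30l2 entry in each of the 16 libraries, coloured by group. The libraries form 3 clusters, with 6 at the upper left, 9 in the middle and HFD 1 at 39.4 and 9.57 CPM at the lower right.

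The log2 fold of the Rpl30 entry against control was 1.03 ± 0.75 in HFD, 1.10 ± 0.75 in ELS and 1.39 ± 0.75 in ELS-HFD, with adjusted p-values of 1.0, 0.999 and 1.0 by edgeR. With the counts of both entries added, a choice made after seeing the data, these folds were 0.14 ± 0.17, 0.07 ± 0.17 and 0.22 ± 0.17. The Rpl30l2 entry had folds of -0.33 ± 0.24, -0.52 ± 0.24 and -0.54 ± 0.24 against control, with adjusted p-values of 1.0, 0.999 and 1.0 by edgeR. Rpl30 has no promoter entry in the table used here. Whether reads passed between the 2 entries in the authors' counting was not tested.

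Genes that act with the ribosomal proteins were read from lists of known members. The first list held 16 genes known for mRNAs with a pyrimidine tract, which was not checked here. Most are translation factors, and the list is called so below. It also holds other proteins such as Hnrnpa1 and Npm1, and Npm1 is among the biogenesis genes too. The other lists held 38 ribosome biogenesis genes, 16 genes of mTOR signalling and its control of such mRNAs and 8 genes of the eIF2 stress pathway. None of these genes passed in any of the 8 comparisons in edgeR or DESeq2. In ELS against control, 3 of 38 biogenesis genes and 1 of 16 translation factors had an unadjusted p under 0.05, against 3.32% of all genes. The other comparisons had at most 2 such biogenesis genes, in ELS-HFD against control (4.43% of all genes), and at most 1 translation factor, in the averaged separation difference (2.60%). No gene of the mTOR and eIF2 lists had one. The median folds in ELS against control were -0.02 for the translation factors, 0.00 for biogenesis, -0.01 for mTOR and -0.07 for the eIF2 list. The translation factors followed the ribosomal proteins at the ends of the range, at 0.10 in ELS-HFD 1 and -0.07 in ELS 2, while the biogenesis list stood at 0.02 and 0.01 there. The 71 mitochondrial ribosomal protein genes, a list added after values were seen, had no call, and their level was -0.02 in ELS-HFD 1 and -0.08 in ELS 2. Their fold was below 0 for 59 of 71 genes in ELS against control, against 50.9% of all genes, with a median of -0.04 and 1 unadjusted p under 0.05. The separation difference averaged over both diets was also below 0 for 59 of 71, against 49.1% of all genes, with a median of -0.04 and 3 unadjusted p-values under 0.05. These genes share libraries, and the 2 results share them too.

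Lyar, a nucleolar protein of pre-ribosome processing, was lower in all 3 exposed groups without overlap with control, at 14.0 ± 0.99 CPM in control, 11.6 ± 0.72 in HFD, 12.2 ± 0.44 in ELS and 11.2 ± 0.95 in ELS-HFD. Its log2 folds were -0.27 ± 0.08, -0.20 ± 0.08 and -0.32 ± 0.08, with adjusted p-values of 1.0, 0.999 and 1.0 by edgeR, so none passed. Of all genes, 1.15%, 0.753% and 0.929% were lower without overlap in these comparisons. All 3 use the same control libraries. Gar1, a protein of the RNA-guided pseudouridylation particle, was higher in every ELS-HFD library than in control, at 5.23 ± 0.33 against 4.24 ± 0.44 CPM, with an adjusted p of 1.0 by edgeR, where 1.06% of all genes were higher in this way.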

How the data were processed

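RNA was taken from 16 brain samples, and libraries were made from 15 ng by oligo-dT reverse transcription with barcodes, pooling and linear amplification, per the labels' protocols. The authors deposited raw counts per Ensembl gene for 15580 genes, per the file headers. Per the submitters' processing notes, the tools were STAR, HTSeq, Picard, cutadapt and DESeq2 and the build was Rnor_6.0, with no versions or roles. The sources used here do not say whether strand or molecular identifiers were used, so antisense partners cannot be told apart. The authors' deposited table also holds log2 fold changes and p-values, which are quoted only where that table is named. Total counts per library were 11438086 to 23629824.

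Counts were tested by edgeR 4.0.16 (quasi-likelihood F test, R 4.3.3) in 1 model of all 16 libraries with TMM scaling (factors 0.952 to 1.03). The filterByExpr filter (count of 10, total of 15) left 14208 genes, and p-values were adjusted by Benjamini-Hochberg over them at 0.05. Members and gene lists were chosen with earlier results of these data known. Levels are CPM with TMM factors, or log2 CPM computed after adding a prior count of 2. The SE of a log2 fold is its size divided by the square root of F. The code was tested on simulated data.

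Named genes were the 2 tested members with the smallest p in each direction of a comparison, those with the largest and smallest within-group SD, each paralog with its partner, Rplp0 and Rpsa. Rps15, Rpl5, Rpl11, Rpl4, Rpl17, Rpl31, Rps2, Rps3, Rps23 and Rps14 were added for their place in the ribosome or their values. The rule also asked for the highest and lowest genes per coding length, which could not be applied because no length was at hand. Alternatives were DESeq2 1.42.0, other scalings, no filter, fits of 2 groups, a replicate block, each library left out and the sets of libraries rich in myelin or poor in choroid plexus transcripts. Same-numbered libraries correlated with a median of -0.10 in their deviations from group means, so the numbers were not taken as pairs. No p-value was computed for a list. A few genes that the rule names are not reported here.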

Additional observations from a re-analysis of the deposited data

Results flagged for a closer look

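Far separation of 1 library from the other 3 of its group was looked for in 67 tested ribosomal protein entries and 8 further measures of the text, 300 groups of 4 libraries in all, and was found in 11. Chance alone gives this in about 1 of 20 groups. In control 4, Rpl30 was at 20.6 CPM, where the other control libraries held 3.21 to 4.84 CPM, and Rps10 was at 25.9 CPM, where the others held 33.0 to 33.5 CPM. The same library had Rps14 at 96.8 CPM, with the others at 104 to 105 CPM, and the Rpl30l2 entry at 18.1 CPM, with the others at 26.2 to 27.5 CPM. In control 1, Rpl32 was at 73.9 CPM, with the others at 76.9 to 77.4 CPM. In control 2 the second row of Rps27a was at 36.6 CPM, with the others at 31.3 to 31.8 CPM. In control 3 Rps18l1 was at 89.6 CPM, with the others at 77.4 to 78.9 CPM. The second row of Rps4x was at 3.41 CPM in ELS 3, with the others at 2.27 to 2.40 CPM. In HFD 4, Rps4x was at 153 CPM, with the others at 163 to 164 CPM, Rplp0 was at 357 CPM, with the others at 380 to 384 CPM, and Rps23 was at 165 CPM, with the others at 187 to 190 CPM.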

How the results depend on the processing

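Under the alternatives run, the number of ribosomal protein genes past the threshold stayed at 0 in all 8 comparisons, and their median folds moved by less than the spread between replicates. Several medians still changed sign when 1 library was left out. In ELS-HFD against control they ran from -0.063 to 0.027 for the large and from -0.076 to 0.021 for the small subunit. Both subunits also crossed 0 in ELS-HFD against ELS, in ELS-HFD against HFD and in the 2 averaged differences. In HFD against control, ELS against control and the interaction the sign held. Calls over all genes were few and did move. DESeq2 called 1 gene in HFD against control, 2 in ELS-HFD against control, 5 in ELS-HFD against ELS and 2 for the averaged diet difference, where edgeR called 0, 0, 1 and 1. ELS-HFD against ELS had 0 calls when only its own groups were fitted and 0 without the 2 libraries rich in myelin transcripts. Without the 3 libraries poor in choroid plexus transcripts there were 23 calls in ELS against control, 116 in ELS-HFD against ELS and 102 for diet, none of them among the members. Leaving out 1 library at a time gave 0 to 1 calls in ELS-HFD against control and 0 to 1 in ELS-HFD against ELS. The causes were not tested.

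Among the single genes named, the sign of a fold that passed no threshold changed in 5 cases. Rps27l in ELS-HFD against ELS was 0.0036 without the libraries rich in myelin transcripts, where it was -0.31 with all libraries. Rpl30 in ELS-HFD against ELS was -0.054 without ELS 2, within -0.054 to 0.50 when each library was left out, and -0.10 without the 3 libraries poor in choroid plexus transcripts, and 0.29 with all. Its interaction was 0.11 without HFD 1, within -1.73 to 0.11 when each library was left out, and 0.0072 with both entries added, an alternative chosen after seeing the data, and -0.74 otherwise. With the replicate number as a block, the fold of Rps28 in ELS-HFD against ELS was 0.25, and no member passed. Deviations from group means correlated at -0.48 to 0.65 in same-numbered libraries of different groups and at -0.65 to 0.67 in differently numbered ones. Whether same-numbered libraries share a batch or litter was not tested. Near-identical copies limit the levels, and with 4 libraries a group, changes smaller than the intervals could not be detected.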
